A study of Mus musculus with 21 samples.

Results

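GABA and glutamate receptor genes were followed across 21 RNA libraries from cells of the Nestin-EGFP mouse, a line in which regulatory DNA of the neural stem cell gene Nestin drives green fluorescent protein. The genes were chosen by symbol: every name of the Gabr, Gabbr, Gria, Grik, Grid, Grin (NMDA subunits) and Grm families was taken, which gave 48 of the 24322 symbols in the files. Of these, 37 reached 1 FPKM (a fragment count scaled by transcript length and library size) in at least 3 libraries and were kept: 14 of the 21 GABA receptor subunit genes, 22 of the 26 glutamate receptor subunit genes, and Grid2ip, a scaffold protein of delta receptors that the name rule also took. Pregnant C57BL/6 mice had been dosed by mouth with valproic acid (VPA, 300 mg/kg per day), an antiepileptic drug and histone deacetylase inhibitor, or with its vehicle methylcellulose (Control), on embryonic days 12, 13 and 14. Green fluorescent cells were then sorted from the offspring. The 7 groups of 3 libraries were VPA and Control forebrain at embryonic day 15 (E15), VPA and Control dentate gyrus of the hippocampus at postnatal day 5 (P5), and dentate gyrus at 12 weeks from VPA mice with voluntary running (running VPA), sedentary VPA mice and Control mice. There was no running group without VPA, and every sorted cell was defined by a transgene rather than by its own Nestin transcript. The origin of the replicates (separate litters, animals or pools) was not stated, so p-values measure the spread between these libraries, which may be technical. Every 12-week library held both Y-linked transcripts (sum 36.4 to 145 FPKM) and Xist, a transcript of female cells (52.9 to 175 FPKM). Each of them thus appears to hold RNA of both sexes, and the unit of replication may differ between ages.

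GABA-A receptors are pentameric chloride channels, usually of alpha, beta and gamma subunits, and GABA-B receptors are G protein-coupled pairs of Gabbr1 and Gabbr2. Glutamate opens AMPA, kainate and NMDA receptor channels and acts on G protein-coupled metabotropic (mGlu) receptors, while delta receptors work mainly as synaptic adhesion and signalling proteins. In the dentate gyrus, progenitors and newborn neurons sense ambient GABA before they receive glutamate synapses, and GABA depolarises them. Oligodendrocyte precursors also carry GABA-A and AMPA receptors, and astrocytes carry mGlu3 and mGlu5.

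Each library had between 12019 and 17601 genes above 0, fewest at 12 weeks. Spread among replicates, as the median over genes of the SD in log2 units, was 0.115 and 0.0938 in Control libraries at E15 and P5, and 0.529, 0.377 and 0.357 in running VPA, sedentary VPA and Control libraries at 12 weeks. Read depth is unknown, since the values are FPKM. Nes was at 7.86 to 20.1 FPKM and Sox2, a stem cell transcription factor, at 24.5 to 174 FPKM in all libraries, so that both progenitor genes were present throughout. Markers of other cells were present too: 7 oligodendrocyte precursor genes summed in Control libraries to 6.05 to 10.9 FPKM at E15, to 422 to 505 FPKM at P5 and to 1109 to 1702 FPKM at 12 weeks, where 7 pericyte genes summed to 946 to 2140.5 FPKM. VPA rep3 at E15 stood apart with a choroid plexus sum of 11165 FPKM, against at most 155 in the other E15 libraries. In RNA from a sorted population, fewer cells of a type and less RNA per cell cannot be told apart.

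Levels are given first, over the 21 libraries and in FPKM, which is scaled by transcript length. Among the GABA-A alpha subunit genes, Gabra2, the subunit common in young forebrain, had the highest median, at 0.0413 to 36.6 FPKM (median 15.4). Gabra3, another subunit of the embryonic brain, ranged over 2.61 to 18.0 FPKM (median 5.44). Gabra4, found in dentate granule cells with extrasynaptic receptors, spanned 1.11 to 11.6 FPKM (median 6.29). The hippocampal subunit Gabra5 stayed low, at 0 to 5.21 FPKM (median 1.84). Of the beta subunit genes, Gabrb2 had 2.3 to 9.72 FPKM (median 4.39) and Gabrb1 0 to 20.1 FPKM (median 4.46). Of the gamma subunit genes, Gabrg1, known from glia and some neurons, had 0.149 to 11.9 FPKM (median 5.51) and Gabrg3 0 to 3.67 FPKM (median 0.349). Gabrr2, a rho subunit, was kept through 3 libraries only.

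Both GABA-B genes were kept, and their levels were far apart. Gabbr1, which binds GABA, had 47.9 to 119 FPKM (median 94.5), and Gabbr2, the partner that carries the pair to the surface and couples it to G proteins, had 1.62 to 13.6 FPKM (median 5.78). Gabbr1 made up 93.5 to 95.2% of the GABA-B sum in Control libraries at E15, 92.1 to 93.6% of it at P5 and 90.7 to 97.9% of it at 12 weeks.

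AMPA receptor transcripts were the most abundant of all classes, with Gria2, the subunit whose edited form keeps calcium out, at 143 to 251 FPKM (median 201). Gria2 was between 65.2% and 82.5% of the AMPA sum in every library. Gria1 had 17.3 to 56.5 FPKM (median 32.2), Gria3 5.74 to 41.6 FPKM (median 13.2) and Gria4 7.33 to 32.9 FPKM (median 10.3). Among kainate receptor genes Grik5, a subunit that needs a partner to form a channel, led with 47.3 to 85.4 FPKM (median 64.0). The channel-forming subunit genes Grik2 and Grik3 had 8.07 to 21.4 FPKM (median 16.4) and 4.12 to 32.6 FPKM (median 10.1), and Grik1 had 0 to 9.92 FPKM (median 1.91). Grik4, the other partner subunit, spanned 0.868 to 27.6 FPKM (median 15.2). The delta receptor gene Grid1 had 1.95 to 36.5 FPKM (median 10.8), and the scaffold gene Grid2ip had 1.2 to 5.69 FPKM (median 2.23). Grin1, the obligatory NMDA subunit, had 4.58 to 19.9 FPKM (median 9.02), whereas the GluN2 subunits that complete the classical receptor were low: Grin2b 0.893 to 3.96 FPKM (median 2.22), Grin2d 0.0216 to 9.02 FPKM (median 2.19) and Grin2c 0 to 5.79 FPKM (median 0.831). The glycine-binding subunit gene Grin3a had 0.560 to 22.6 FPKM (median 5.55) and Grin3b 0 to 2.77 FPKM (median 1.48). AMPA and kainate sums were thus 208 to 275 and 106 to 119 FPKM in Control libraries at E15, where the NMDA sum was 15.7 to 16.1 FPKM.

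Of the mGlu genes, Grm5, which couples to calcium release, had 2.35 to 9.15 FPKM (median 6.71) and Grm3, the group II receptor common in astrocytes, 0.581 to 29.1 FPKM (median 9.09). Grm2, the other group II gene, had 0 to 6.56 FPKM (median 3.72), and the presynaptic group III genes Grm4 and Grm7 had 0 to 2.56 FPKM (median 0.749) and 0.207 to 10.6 FPKM (median 1.52). The 11 genes that were not kept included Gabra6 and Gabrr3, listed at 0 in all libraries, and Gabrp, Grm6, Gabrd, Gabre, Gabrq, Gabrr1, Grin2a and Grm8. Among those close to the limit outside it was Gabrr1, with 1 library at 1 FPKM or more and a highest value of 1.44 FPKM. Closest inside it were Gabrr2, with 1.23, 1.49 and 2.47 FPKM in its 3 libraries, and Gabrg3, with 4 libraries. Grin2a, the GluN2 subunit of mature synapses, had at most 0.258 FPKM and was listed at 0 in all 9 libraries at 12 weeks. Gabrd, the delta subunit of extrasynaptic receptors on granule neurons, reached 0.583 FPKM and Gabra6, known from cerebellar granule cells, was listed at 0 throughout. Kept members at 1 FPKM or more numbered 26 to 30 in the E15 libraries, 32 or 33 in those of P5 and 28 to 35 in those of 12 weeks. In running VPA rep2 and rep3, 7 and 6 kept members were listed at 0, against at most 2 in any other library.

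**Figure D1:**
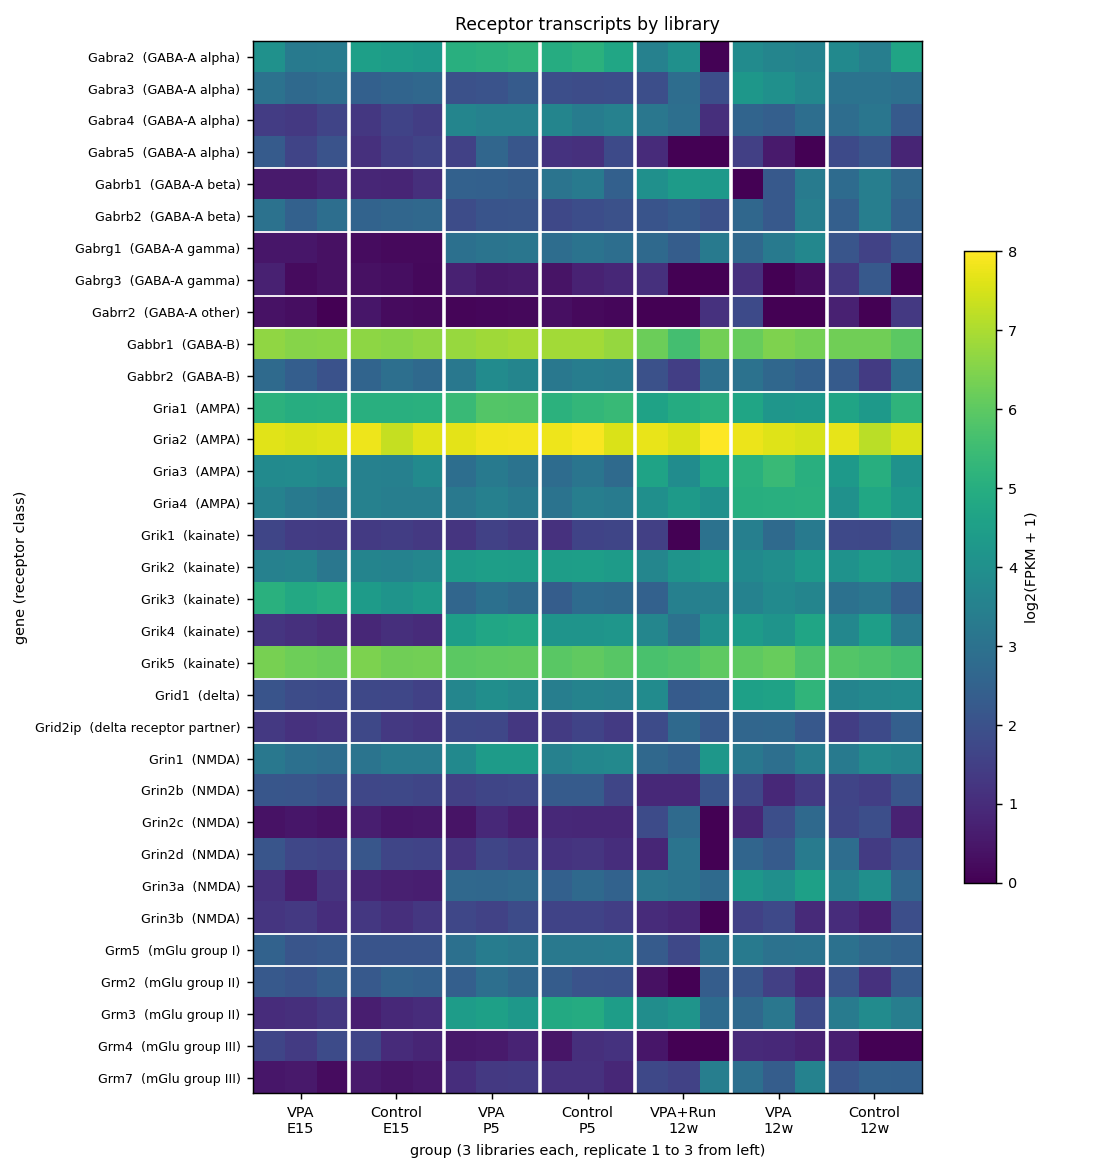
Heat map of log2(FPKM + 1) for 33 of the 37 kept genes (rows, by receptor class) in the 21 libraries (columns, with VPA left of Control at each age and running VPA leftmost at 12 weeks). Gria2, Gabbr1 and Grik5 were high in every library, while Grm3, Grik4, Gabra4 and Gabrg1 were at most 2.13 FPKM in every E15 library and higher in most dentate gyrus libraries.

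The first comparison was between ages in Control libraries, and it asked how the receptor set of Nestin-EGFP cells differed between P5 dentate gyrus and E15 forebrain. Region and age changed together and cannot be told apart. In limma on log2(FPKM + 1) over all 21 libraries, 14 of 37 members passed an adjusted p of 0.05, against 20.7% of the 14662 genes tested. Of them, 10 rose at P5 (14.4% of all genes rose) and 4 fell (6.33% of all genes fell). The members' median log2 fold change was 0.21, beside 0.14 over all genes. This median over all genes became 0.08 with median-of-ratios scaling and -0.06 with quantile normalization. No member that passed changed direction under these scalings, and Grm5 did not pass with quantile normalization. The risers included mGlu (Grm3, Grm5), kainate (Grik4, Grik2), delta (Grid1), NMDA (Grin3a) and GABA-A genes (Gabrg1, Gabra4, Gabrb1), and the fallers were Grik3, Gria3, Gabra3 and Grik5.

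Grm3 changed most. It had 0.581, 0.899 and 1.03 FPKM at E15, 27.8, 29.1 and 20.7 FPKM at P5 and 9.09, 13.4 and 9.65 FPKM at 12 weeks in Control libraries, so that P5 and E15 did not overlap (log2 fold change 3.86, SE 0.33, adjusted p = 1.31e-07). Grik4 followed, with 0.868, 1.09 and 0.957 FPKM at E15, 16.6, 16.5 and 17.6 FPKM at P5 and 12.0, 21.3 and 8.36 FPKM at 12 weeks (log2 fold change 3.18, SE 0.28, adjusted p = 1.47e-07). Both genes stayed near 1 FPKM in all Control forebrain libraries and were many times higher in all Control dentate gyrus libraries. Grik2, the channel-forming partner of Grik4, had 20.7, 21.4 and 20.0 FPKM at P5 and 11.1, 10.7 and 11.9 FPKM at E15 (log2 fold change 0.83, SE 0.18, adjusted p = 0.00258). Grik3 went the other way, with 20.2, 16.5 and 19.7 FPKM at E15, 4.12, 6.01 and 5.66 FPKM at P5 and 6.97, 7.81 and 4.33 FPKM at 12 weeks (log2 fold change -1.67, SE 0.25, adjusted p = 6.96e-05). While these genes went opposite ways, the kainate sum was 106 to 119 FPKM at E15, 104 to 111 FPKM at P5 and 79.8 to 105 FPKM at 12 weeks.

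Grid1, a delta receptor subunit that bridges synapses through cerebellins, had 2.34, 2.25 and 1.95 FPKM at E15, 9.76, 10.8 and 10.5 FPKM at P5 and 11.3, 12.2 and 13.3 FPKM at 12 weeks in Control libraries (log2 fold change 1.84, SE 0.30, adjusted p = 0.000184 for P5 over E15). Grin3a, an NMDA subunit that lowers calcium flow, had 0.766, 0.622 and 0.583 FPKM at E15, 4.46, 5.64 and 4.7 FPKM at P5 and 9.88, 14.7 and 5.05 FPKM at 12 weeks (log2 fold change 1.84, SE 0.28, adjusted p = 9.02e-05 for P5 over E15). Grm5 had 8.31, 8.4 and 8.6 FPKM at P5 and 3.21, 3.23 and 3.25 FPKM at E15 (log2 fold change 1.16, SE 0.25, adjusted p = 0.00216); with quantile normalization this call was lost (log2 fold change 0.66, adjusted p = 0.123). Gria3 was lower at P5, at 6.14, 7.55 and 5.74 FPKM against 10.4, 10.2 and 13.1 FPKM at E15 (log2 fold change -0.71, SE 0.24, adjusted p = 0.0426), but this call was lost without any 1 of the 6 libraries (adjusted p = 0.0529 to 0.168).

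The 3 GABA-A genes that passed as higher at P5, Gabrg1, Gabra4 and Gabrb1, lie in 1 cluster on chromosome 5 with Gabra2, over 1399 kb (mouse genome GRCm38.p6, RefSeq, 70751047 to 72149572). Gabrg1 had 0.201, 0.149 and 0.150 FPKM at E15, 6.19, 7.24 and 6.42 FPKM at P5 and 3.33, 1.98 and 3.5 FPKM at 12 weeks (log2 fold change 2.7, SE 0.27, adjusted p = 6.09e-07 for P5 over E15). Gabra4 had 1.46, 2.08 and 1.76 FPKM at E15, 11.4, 9.22 and 10.4 FPKM at P5 and 6.29, 7.87 and 3.84 FPKM at 12 weeks (log2 fold change 2.03, SE 0.39, adjusted p = 0.000789). These P5 values lay well above every E15 value. Gabrb1 had 0.799, 0.771 and 1.13 FPKM at E15, 7.36, 8.68 and 4.42 FPKM at P5 and 6.01, 9.66 and 5.51 FPKM at 12 weeks (log2 fold change 2.0, SE 0.53, adjusted p = 0.0105), and its call was lost without Control P5 rep2 (adjusted p = 0.0508). Gabra2 lies between them and did not pass, with 30.0, 33.9 and 25.5 FPKM at P5 and 21.7, 20.5 and 19.2 FPKM at E15 (log2 fold change 0.51, SE 0.65, adjusted p = 0.681). The P5 libraries were higher without overlap. The SE of 0.65 came from the fit of all 21 libraries and thus also held the spread at 12 weeks. There running VPA rep3 had 0.0413 FPKM of Gabra2, the lowest value of all libraries. The missing call therefore does not show that Gabra2 differed from its neighbours. Gabra4 and Gabrb1 run in opposite directions from starts so close that their annotated spans overlap by 388 bases, and since no strand was stated for the libraries, reads there may have counted toward either gene.

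The promoters of these 4 neighbours are shown, of which 3 passed as higher at P5 and Gabra2 was higher without passing. Also shown are promoters of Grik4, which passed at P5 with VPA, and Gabra3, 1 of 2 members higher with VPA at all 3 ages. Each is 250 bases before to 50 bases after the start, 5′ to 3′ on the gene's own strand, from RefSeq on GRCm38.p6. Capitals mark the GC box GGGCGG and the SOX core ACAANG, either of them on either strand. Positions are chr5:70842568-70842867 (minus strand) for Gabrg1, chr5:71095800-71096099 (minus) for Gabra2, chr5:71658259-71658558 (minus) for Gabra4, chr5:71657671-71657970 (plus) for Gabrb1, chr9:42944322-42944621 (minus) for Grik4 and chrX:72656870-72657169 (minus) for Gabra3; Gabrb1 and Gabra3 have 2 annotated windows each, of which 1 is printed.
Gabrg1: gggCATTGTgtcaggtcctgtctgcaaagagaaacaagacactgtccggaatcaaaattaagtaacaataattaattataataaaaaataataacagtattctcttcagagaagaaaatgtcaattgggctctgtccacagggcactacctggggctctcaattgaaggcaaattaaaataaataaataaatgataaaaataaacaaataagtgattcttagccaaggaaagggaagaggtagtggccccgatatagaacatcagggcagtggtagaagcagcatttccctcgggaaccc
Gabra2: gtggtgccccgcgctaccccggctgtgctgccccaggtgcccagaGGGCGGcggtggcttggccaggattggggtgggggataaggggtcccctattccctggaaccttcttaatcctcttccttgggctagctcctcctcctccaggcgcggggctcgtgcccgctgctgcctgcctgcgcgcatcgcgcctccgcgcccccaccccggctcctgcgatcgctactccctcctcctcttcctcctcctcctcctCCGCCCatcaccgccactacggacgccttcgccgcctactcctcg
Gabra4: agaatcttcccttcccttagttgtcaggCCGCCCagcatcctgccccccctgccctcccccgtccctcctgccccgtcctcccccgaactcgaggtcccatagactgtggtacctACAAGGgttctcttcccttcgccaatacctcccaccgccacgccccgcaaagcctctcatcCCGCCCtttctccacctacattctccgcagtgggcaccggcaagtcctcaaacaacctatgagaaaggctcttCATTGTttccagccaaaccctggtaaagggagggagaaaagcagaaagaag
Gabrb1: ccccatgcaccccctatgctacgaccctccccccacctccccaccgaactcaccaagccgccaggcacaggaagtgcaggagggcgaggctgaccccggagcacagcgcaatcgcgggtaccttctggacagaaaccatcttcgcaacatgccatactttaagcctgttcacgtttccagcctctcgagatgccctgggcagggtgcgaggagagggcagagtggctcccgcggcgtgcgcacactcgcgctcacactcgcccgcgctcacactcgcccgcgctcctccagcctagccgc
Grik4: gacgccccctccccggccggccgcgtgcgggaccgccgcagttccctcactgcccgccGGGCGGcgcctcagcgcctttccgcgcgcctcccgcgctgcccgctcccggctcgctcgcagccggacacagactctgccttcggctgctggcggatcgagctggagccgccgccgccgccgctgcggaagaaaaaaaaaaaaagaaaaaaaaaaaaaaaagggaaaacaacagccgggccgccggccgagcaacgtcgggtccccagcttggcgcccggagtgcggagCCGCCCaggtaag
Gabra3: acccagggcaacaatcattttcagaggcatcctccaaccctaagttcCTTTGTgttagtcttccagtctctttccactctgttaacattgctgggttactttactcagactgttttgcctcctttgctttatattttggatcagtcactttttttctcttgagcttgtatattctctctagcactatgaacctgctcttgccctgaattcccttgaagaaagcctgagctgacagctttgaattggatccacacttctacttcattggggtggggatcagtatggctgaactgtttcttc

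Neighbours in the cluster had unlike promoters. The Gabrg1 window held 3 CpG dinucleotides and no GC box, whereas that of Gabra2 held 25 CpG and 2 GC boxes, that of Gabra4 12 CpG and 2 GC boxes, and the printed window of Gabrb1 25 CpG and no GC box. The other Gabrb1 window, which is not printed, held 9 CpG and no GC box. Grik4 had the most CpG of the 6 printed windows, at 42, and Gabra3 the fewest, at 0. Windows were found for 25 of the 37 kept members, 31 windows in all. Their median CpG count was 13 and their median GC content 61.0%, beside 7 and 52.7% over all 32851 windows. The kept members had been filtered by level, and the genes of all windows had not. The 10 windows of 8 members that were not kept had a median CpG count of 6.5, and their median GC content was also below that of the kept members. Whether the higher values of the kept members go with the filter was not tested. The GC box was in 17 of the 31 windows (54.8%, beside 35.7% of all windows) and the SOX core in 8 (25.8%, beside 41.2%). The E-box CAGCTG and the CRE TGACGTCA were in none of the 31, beside 16.3% and 1.79% of all windows. The left part of the RE1 element, TTCAGCACC, was in 1 window, that of Grm2, beside 0.371% of all windows; RE1 is the element bound by the repressor REST at many neuronal genes. These are matches of letters in a short window and not bound sites.

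Between 12 weeks and P5, both in Control dentate gyrus, 9 of 37 members passed, against 12.6% of all genes. At 12 weeks 6 members rose (7.26% of all genes did) and 3 fell (5.35%). Gria3 had 18.9, 31.2 and 16.0 FPKM at 12 weeks and 6.14, 7.55 and 5.74 FPKM at P5 (log2 fold change 1.57, SE 0.24, adjusted p = 0.000245). Gria4, an AMPA subunit of interneurons and oligodendrocyte precursors, had 15.6, 26.3 and 18.1 FPKM at 12 weeks and 7.33, 9.74 and 9.12 FPKM at P5 (log2 fold change 1.09, SE 0.18, adjusted p = 0.000536). The AMPA sum, most of it Gria2, was 219 to 269 FPKM at 12 weeks and 240.0 to 298 FPKM at P5. Gabra3 had 7.34, 7.24 and 6.64 FPKM at 12 weeks, against 2.81, 2.61 and 2.71 FPKM at P5 (log2 fold change 1.12, SE 0.23, adjusted p = 0.00326). Gabbr1 was lower at 12 weeks, at 75.2, 75.1 and 62.3 FPKM against 119, 116 and 105 FPKM at P5 (log2 fold change -0.67, SE 0.14, adjusted p = 0.00353). These 4 calls held without each of the 6 libraries in turn.

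The other 5 calls at 12 weeks each failed without most single libraries, with adjusted p-values of up to 0.22. The count of 9 became 4 without Control P5 rep1 or rep2, and 5 without Control P5 rep3 or Control 12-week rep2. The share over all genes is not given for these counts, so they describe only how stable the calls were. Gabrb2 and Grm7 were among those higher at 12 weeks: Gabrb2 averaged 6.22 ± 2.95 FPKM in 12-week libraries and 2.65 ± 0.326 FPKM in P5 libraries (log2 fold change 0.91, SE 0.29, adjusted p = 0.0483). The Gabrb2 call was also lost under 6 other settings, among them quantile normalization and the replicate block (adjusted p = 0.0507 to 0.0972). Grm7, a presynaptic group III receptor, averaged 4.17 ± 0.712 FPKM in 12-week libraries and 1.09 ± 0.197 FPKM in P5 libraries (log2 fold change 1.3, SE 0.38, adjusted p = 0.032). Gabrg1 and Grm3, high at P5, were lower at 12 weeks (log2 fold change -0.97, SE 0.27, adjusted p = 0.0222 for Gabrg1; log2 fold change -1.2, SE 0.33, adjusted p = 0.0243 for Grm3). The Grm3 call was lost with a pseudocount of 0.1 (adjusted p = 0.0508). Marker genes changed with age too: in Control libraries all 7 oligodendrocyte precursor markers rose at P5 over E15 (median log2 fold change 4.62) and again at 12 weeks over P5 (1.73). Of 8 astrocyte markers, 7 rose at P5, where their sum was 405 to 487 FPKM, against 30.1 to 33.2 FPKM at E15. At 12 weeks over P5, 4 of the 8 rose and 3 fell. Other lists changed as well. At P5 over E15, 7 of 10 stem and progenitor markers rose. There 6 of 9 GABAergic neuron, 6 of 9 newborn neuron and 5 of 10 mature neuron markers fell, while 0, 3 and 1 rose. All 7 pericyte and all 6 endothelium markers rose at 12 weeks over P5. The part of these cells in the receptor changes was not tested.

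**Figure D2:**
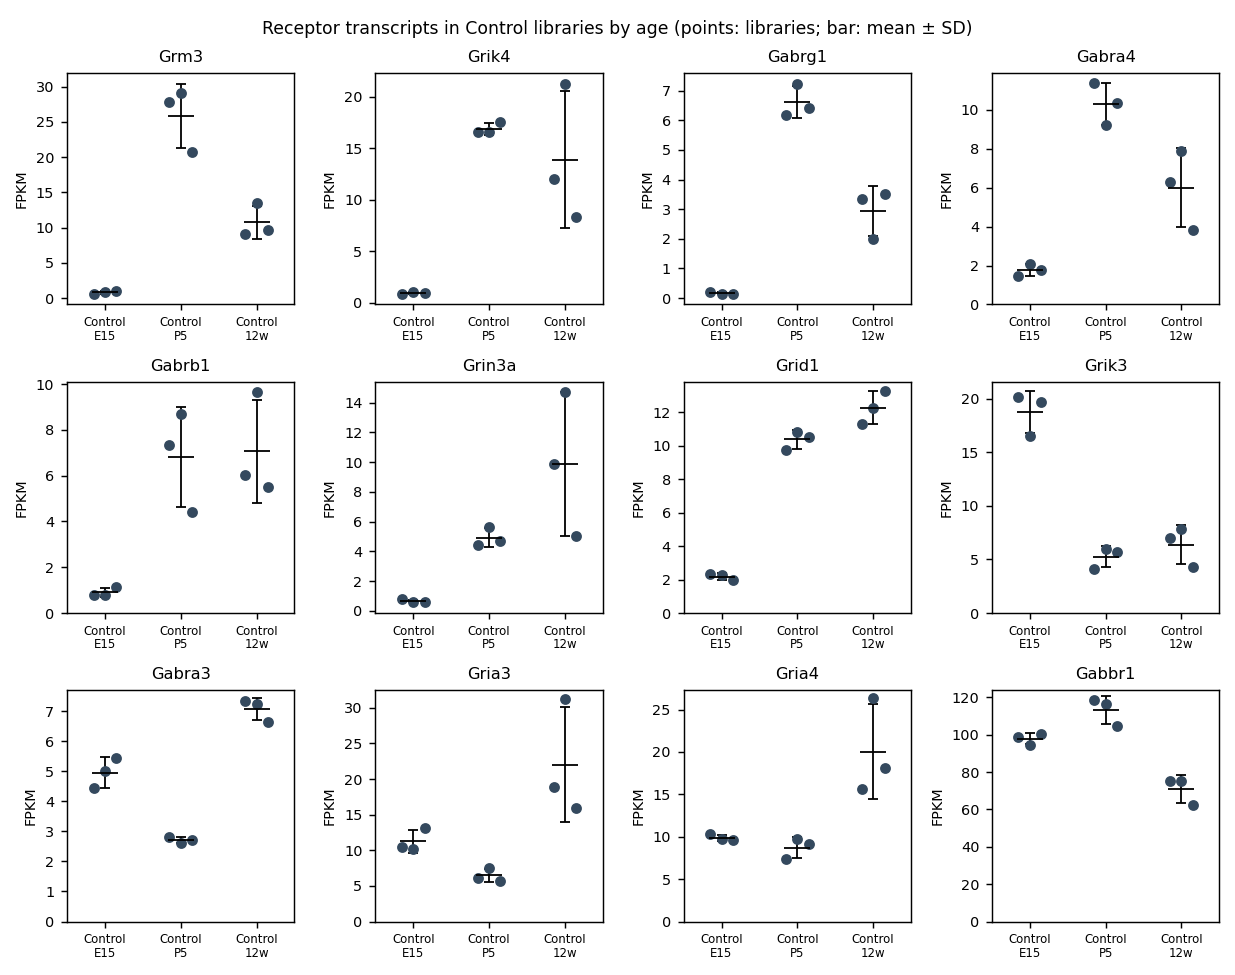
FPKM of 12 members in each Control library by age (E15, P5 and 12 weeks from left to right; points are libraries, bars are means). By their means Grm3 and Grik4 were highest at P5 (25.9 and 16.9 FPKM), Grik3 at E15 (18.8 FPKM), and Gabra3, Gria3 and Gria4 at 12 weeks (7.07, 22.0 and 20.0 FPKM).

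VPA forebrain at E15 was compared with Control forebrain 1 day after the last dose. No member passed in limma (0 of 29 tested, against 0.0405% of 12345 genes), and 6 had an unadjusted p under 0.05, against 10.5% of all genes. The libraries of the groups did not overlap for 8 members, against 17.5% of all genes: 7 were higher in VPA (8.19% of all genes were) and 1, Gabra2, was lower. The members' median log2 fold change was 0.01, beside -0.01 over all genes. The values below are thus differences that did not pass. Without VPA rep1 the number that did not overlap was 15, against 26.3% of all genes, and 7 of the 15 were lower in VPA; this count can only grow when a library is removed.

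Within the GABA-A alpha class the mix of subunits differed. Gabra2 had 15.4, 8.69 and 9.12 FPKM in VPA libraries, against 21.7, 20.5 and 19.2 FPKM in Control libraries (log2 fold change -0.87, SE 0.20, adjusted p = 0.344). VPA rep1 lay between the other VPA libraries and the Controls, and without it the call passed (log2 fold change -1.11, adjusted p = 0.0184). Gabra3 had 7.08, 5.73 and 6.27 FPKM in VPA libraries, against 4.44, 5.0 and 5.44 FPKM in Control libraries (log2 fold change 0.30, SE 0.11, adjusted p = 0.447). Gabra5 had 3.94, 2.09 and 3.12 FPKM in VPA libraries, against 1.15, 1.79 and 2.09 FPKM in Control libraries, with the highest Control and the lowest VPA value nearly equal (log2 fold change 0.59, SE 0.21, adjusted p = 0.447). As a share of the alpha sum, Gabra2 was 41.2 to 52.4% in VPA libraries and 65.8 to 73.7% in Control libraries, and Gabra3 was 24.2 to 29.5% in VPA libraries and 15.1 to 18.6% in Control libraries. The alpha sum itself was 19.4 to 29.3 FPKM in VPA and 29.2 to 30.3 FPKM in Control libraries, while the beta and gamma sums overlapped between the groups.

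Among glutamate receptor genes at E15, the largest difference was in the kainate subunit Grik3, which had 32.6, 27.6 and 30.4 FPKM in VPA libraries, against 20.2, 16.5 and 19.7 FPKM in Control libraries (log2 fold change 0.66 (95% interval 0.42 to 0.89), adjusted p = 0.195). Grin2b, the GluN2 subunit of immature NMDA receptors, had 3.37, 3.29 and 2.88 FPKM in VPA libraries, against 2.24, 2.3 and 2.18 FPKM in Control libraries (log2 fold change 0.37, SE 0.10, adjusted p = 0.373). All 3 VPA libraries lay above all 3 Controls for both genes, and both passed with array quality weights (adjusted p = 0.0303 for Grik3 and 0.0443 for Grin2b), which called 2.81% of all genes. Grid1 and Grm5 were also higher without overlap, by log2 fold changes of 0.25 and 0.19. Without VPA rep3, the library with choroid plexus transcripts, the log2 fold changes of Grik3, Grin2b and Gabra2 were 0.65, 0.42 and -0.77, and no member passed. The AMPA genes Gria1 and Gria2 overlapped, at 32.0 ± 1.71 FPKM in VPA and 32.4 ± 0.488 FPKM in Control for Gria1 and 193 ± 6.83 FPKM in VPA and 193 ± 34.1 FPKM in Control for Gria2. Markers of GABAergic neurons also lay on the VPA side: 9 of 9 tested genes had a fold change above 0 (median 0.63), and the sum of the list was 347 to 454 FPKM in VPA and 216 to 368 FPKM in Control libraries, with Vip listed at 0 in all 6 and Pvalb in all 3 Controls. Their part in the receptor values was not tested.

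VPA dentate gyrus at P5 was compared with Control dentate gyrus 5 days after birth. In limma 1 of 32 members passed, against 2.24% of 13328 genes, and 11 had an unadjusted p under 0.05, against 24.0% of all genes. For 8 members the groups did not overlap, against 29.4% of all genes, and all 8 were higher in VPA, against 13.8% of all genes. Of the 32 members 27 had a fold change above 0, against 49.1% of all genes, and the median was 0.15, beside -0.00 over all genes. Members thus did not overlap about as often as other genes did, and those that did not overlap lay on 1 side. Without VPA rep1, Control rep2 or Control rep3 the number that did not overlap was 15, 14 or 13, against 44.1, 36.7 or 45.5% of all genes, a count that can only grow when a library is removed.

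Grik4 was the member that passed. It had 21.2, 25.5 and 27.6 FPKM in VPA libraries, against 16.6, 16.5 and 17.6 FPKM in Control libraries, which is 24.7 ± 3.25 FPKM in VPA and 16.9 ± 0.585 FPKM in Control (SD, n = 3 each; log2 fold change 0.52, SE 0.10, adjusted p = 0.0462). Every VPA value was above every Control value, yet the call was near the threshold: it held without VPA rep1 and was lost without any other single library (adjusted p = 0.0181 to 0.153 over the 6). It was also lost with no filter on low values (adjusted p = 0.0843), without the intensity trend (adjusted p = 0.0596) and in a fit of all 21 libraries (adjusted p = 1.0). Grik4 lies on chromosome 9 (42518182 to 42945000, GRCm38.p6), and its CpG-rich promoter is printed above.

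Grik4 aside, no member passed at P5. Gria1, the AMPA subunit that is inserted at synapses during plasticity, had 41.8, 56.5 and 55.8 FPKM in VPA libraries, against 34.1, 38.3 and 40.6 FPKM in Control libraries (log2 fold change 0.43, SE 0.12, adjusted p = 0.105). Grin1 had 12.9, 19.9 and 19.8 FPKM in VPA libraries, against 10.5, 12.1 and 12.6 FPKM in Control libraries (log2 fold change 0.52, SE 0.16, adjusted p = 0.119). VPA rep1 was the lowest VPA library for both, just above the Controls, and without it both passed (log2 fold change 0.57, adjusted p = 0.0259 for Gria1; 0.72, adjusted p = 0.0206 for Grin1). Grm2, an autoreceptor of glutamate terminals, had 4.37, 6.56 and 5.33 FPKM in VPA libraries, against 4.05, 3.13 and 3.02 FPKM in Control libraries (log2 fold change 0.54, SE 0.15, adjusted p = 0.0984). Its lowest VPA library lay close to the highest Control. Grin2d had 1.38, 2.19 and 1.78 FPKM in VPA libraries, against 1.26, 1.37 and 1.09 FPKM in Control libraries, with the nearest VPA and Control libraries almost equal (log2 fold change 0.31, SE 0.14, adjusted p = 0.228). Gabra3 and Grid1, higher without overlap, had log2 fold changes of 0.21 and 0.30. With array quality weights 4 of 32 members passed, against 9.1% of all genes, among them Gria1, Grik4 and Grin1.

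Control rep3 was unlike the other Controls at P5. The summed Y-linked transcripts (Ddx3y, Uty, Kdm5d and Eif2s3y) were 94.8, 92.9 and 104 FPKM in VPA libraries and 0.0943, 0.0573 and 86.8 FPKM in Control libraries, so that Control rep3 alone among Controls resembled VPA in this. Members chosen after their values were seen followed the same division. Gabrb1 had 4.59, 4.46 and 4.12 FPKM in VPA libraries, against 7.36, 8.68 and 4.42 FPKM in Control libraries. Grin2b had 1.87, 2.21 and 2.23 FPKM in VPA libraries, against 3.87, 3.96 and 2.16 FPKM in Control libraries, and Grm3 had 20.2, 22.3 and 18.4 FPKM in VPA libraries, against 27.8, 29.1 and 20.7 FPKM in Control libraries. For all 3 genes Control rep3 lay within the range of the VPA libraries, and without Control rep3 they were the 3 members that passed, all lower in VPA (adjusted p = 0.0286, 0.0374 and 0.0444), against 3.78% of all genes. With the Y-linked sum as a covariate no member passed, and Grik4 had a log2 fold change of 0.46 (adjusted p = 0.348). Sex of the animals and treatment cannot be fully told apart at P5, and without Control rep3 they cannot be told apart at all.

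Marker genes differed at P5 as well. All 7 pericyte markers had a fold change above 0, 2 of them passed, and their sum was 148 to 271 FPKM in VPA and 98.0 to 115 FPKM in Control libraries. None of 10 stem and progenitor markers had a fold change above 0, 7 were lower without overlap, 1 passed as lower, and their sum was 2508 to 2599 FPKM in VPA and 2601 to 2999.6 FPKM in Control libraries. Of 8 astrocyte markers 4 had a fold change above 0, and 1 passed as higher in VPA. Newborn neuron markers were above 0 in 7 of 9, with sums of 2201 to 2384 FPKM in VPA and 1957 to 2216 FPKM in Control libraries. All 6 fibroblast markers had a fold change above 0, 2 passed, and their sum was 19.0 to 23.9 FPKM in VPA and 10.6 to 12.8 FPKM in Control libraries. All 5 microglia markers tested had a fold change above 0 and none passed, with sums of 20.9 to 27.9 FPKM in VPA and 11.2 to 17.2 FPKM in Control libraries. Erythroid markers lay on the other side: all 4 tested were lower in VPA without overlap, 2 passed (median log2 fold change of the 4 -1.99), and their sum was 92.7 to 397 FPKM in VPA and 727 to 1033 FPKM in Control libraries. The part of any of these lists in the receptor values was not tested.

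**Figure D3:**
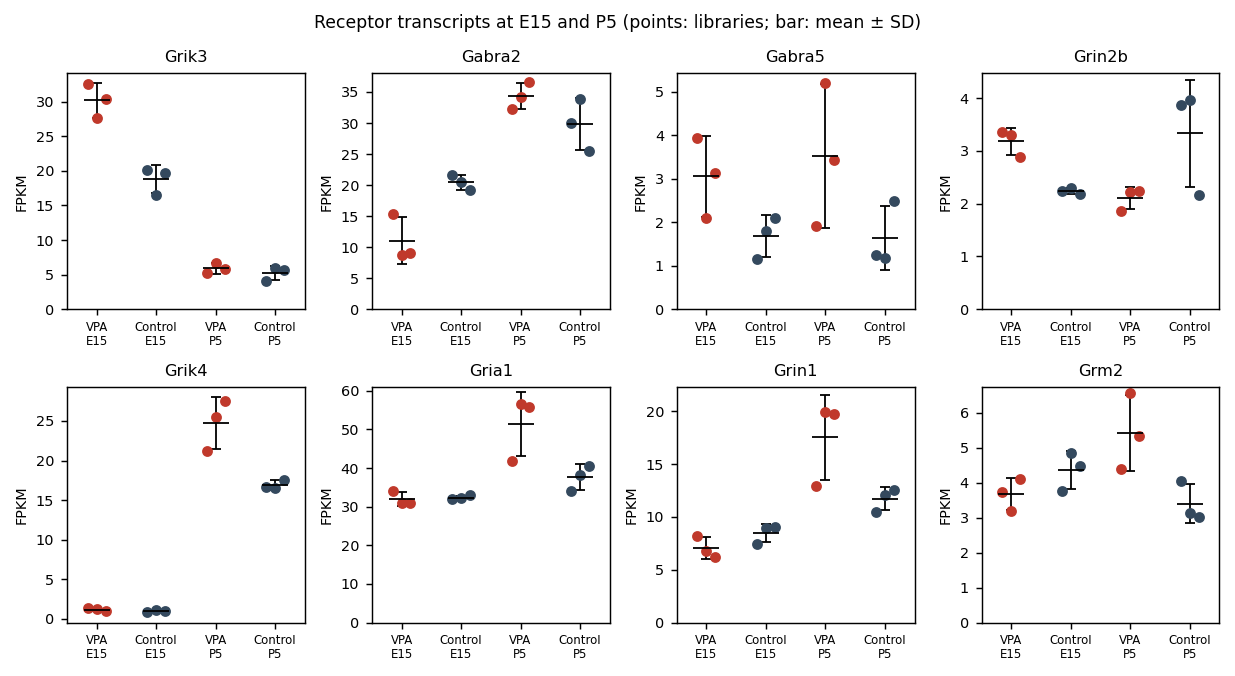
FPKM of 8 members in each VPA library (left) and Control library (right) at E15 and P5; points are libraries and bars are means. Grik3 was 27.6 to 32.6 FPKM in VPA and 16.5 to 20.2 FPKM in Control at E15 but overlapped at P5, while Grik4 was 21.2 to 27.6 FPKM in VPA and 16.5 to 17.6 FPKM in Control at P5.

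At 12 weeks running VPA, sedentary VPA and Control dentate gyrus were compared in 1 limma fit of 9 libraries and 13847 genes. The 3 comparisons share libraries in pairs, so that high values in sedentary VPA enter 2 of them with opposite signs. No member passed in any: 0 of 36 for sedentary VPA over Control (against 0.0% of all genes), 0 of 36 for running over sedentary VPA (0.0%) and 0 of 36 for running VPA over Control (0.0%). Unadjusted p-values under 0.05 were found for 6 members in sedentary VPA over Control (6.39% of all genes), 10 in running over sedentary VPA (11.3%) and 0 in running VPA over Control (7.76%). Between sedentary VPA and Control, 12 members did not overlap, against 15.5% of all genes, and 10 of them were higher in VPA, against 7.83%. Between running and sedentary VPA, 11 did not overlap (15.5% of all genes), and 10 were lower with running (8.48%). Between running VPA and Control 4 did not overlap (13.1% of all genes), 2 in each direction. Without running VPA rep3 the second count became 19 (27.6% of all genes) and the third 12 (24.5%). Without running VPA rep1, running VPA rep2 or Control rep3 the third became 8, 8 or 9, against 27.8, 24.7 or 20.0% of all genes. In a fit of all 21 libraries, in which the adult groups borrow the smaller spread of the younger ones, 3 members passed for sedentary VPA over Control, against 3.64% of all genes, all higher (Gabra3, Gabrg1 and Gria4, adjusted p = 0.0273, 0.0156 and 0.0422). In that fit 9 passed for running over sedentary VPA, against 11.6% of all genes. Of these, Gabra3, Gria4, Grid1, Grik1 and Grin3a were among the 7 that were lower, and Gabrb1 and Grm3 were higher.

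The delta gene Grid1, the AMPA genes Gria3 and Gria4 and the NMDA gene Grin3a had their highest means in sedentary VPA. Grid1 had 13.4, 3.94 and 4.31 FPKM in running VPA libraries, 22.2, 23.6 and 36.5 FPKM in sedentary VPA libraries and 11.3, 12.2 and 13.3 FPKM in Control libraries. Sedentary VPA was above the other groups without overlap, and 2 of the running libraries were below every Control (log2 fold change 1.07, SE 0.42, adjusted p = 0.722 for sedentary VPA over Control; log2 fold change -1.94, SE 0.42, adjusted p = 0.152 for running over sedentary VPA). Without running VPA rep1 the second difference passed (log2 fold change -2.44, adjusted p = 0.0415). Gria4 had 14.9, 19.5 and 15.3 FPKM in running VPA libraries, 31.4, 32.3 and 32.9 FPKM in sedentary VPA libraries and 15.6, 26.3 and 18.1 FPKM in Control libraries, with the sedentary VPA libraries within 2 FPKM of each other (log2 fold change 0.69, SE 0.25, adjusted p = 0.665 for sedentary VPA over Control; log2 fold change -0.93, SE 0.25, adjusted p = 0.212 for running over sedentary VPA). Gria3 had 24.0, 13.8 and 25.9 FPKM in running VPA libraries, 33.0, 41.6 and 31.7 FPKM in sedentary VPA libraries and 18.9, 31.2 and 16.0 FPKM in Control libraries (log2 fold change 0.71, SE 0.31, adjusted p = 0.772 for sedentary VPA over Control; log2 fold change -0.75, SE 0.31, adjusted p = 0.409 for running over sedentary VPA). Its lowest sedentary VPA value was just above the highest Control. Grin3a had 8.07, 7.21 and 5.85 FPKM in running VPA libraries, 17.9, 14.7 and 22.6 FPKM in sedentary VPA libraries and 9.88, 14.7 and 5.05 FPKM in Control libraries, where 1 Control and 1 sedentary VPA library were almost equal (log2 fold change 0.92, SE 0.39, adjusted p = 0.758 for sedentary VPA over Control; log2 fold change -1.26, SE 0.39, adjusted p = 0.275 for running over sedentary VPA).

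Kainate and mGlu genes differed as follows, and none passed. Grik3 had 4.63, 10.1 and 10.5 FPKM in running VPA libraries, 10.7, 13.3 and 11.6 FPKM in sedentary VPA libraries and 6.97, 7.81 and 4.33 FPKM in Control libraries (log2 fold change 0.83, SE 0.39, adjusted p = 0.772 for sedentary VPA over Control; log2 fold change -0.51, SE 0.39, adjusted p = 0.648 for running over sedentary VPA). Grik1 had 1.85, 0 and 7.13 FPKM in running VPA libraries, 9.92, 5.77 and 8.65 FPKM in sedentary VPA libraries and 2.37, 2.34 and 3.43 FPKM in Control libraries, higher in sedentary VPA than in Control without overlap (log2 fold change 1.28, SE 0.68, adjusted p = 0.797). The running libraries spread from 0 to 7.13 FPKM for that gene. Grik4 had 11.6, 7.15 and 15.2 FPKM in running VPA libraries, 19.8, 16.7 and 25.1 FPKM in sedentary VPA libraries and 12.0, 21.3 and 8.36 FPKM in Control libraries; running and sedentary VPA did not overlap (log2 fold change -0.84, SE 0.39, adjusted p = 0.45). Grm5 had 3.96, 2.35 and 6.76 FPKM in running VPA libraries, 8.71, 7.01 and 7.27 FPKM in sedentary VPA libraries and 6.94, 5.49 and 4.75 FPKM in Control libraries (log2 fold change 0.37, SE 0.41, adjusted p = 0.938 for sedentary VPA over Control; log2 fold change -0.77, SE 0.41, adjusted p = 0.513 for running over sedentary VPA). Grm3 was lower in sedentary VPA than in Control without overlap, with 14.1, 16.8 and 6.02 FPKM in running VPA libraries, 5.46, 8.1 and 2.55 FPKM in sedentary VPA libraries and 9.09, 13.4 and 9.65 FPKM in Control libraries (log2 fold change -0.96, SE 0.47, adjusted p = 0.774).

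The mix of GABA-A genes differed at 12 weeks, though no gene passed. Gabra3 had 2.79, 6.2 and 2.79 FPKM in running VPA libraries, 18.0, 15.1 and 12.1 FPKM in sedentary VPA libraries and 7.34, 7.24 and 6.64 FPKM in Control libraries, which put the groups in 3 separate ranges (log2 fold change 0.97, SE 0.38, adjusted p = 0.709 for sedentary VPA over Control; log2 fold change -1.76, SE 0.38, adjusted p = 0.149 for running over sedentary VPA; log2 fold change -0.78, SE 0.38, adjusted p = 0.629 for running VPA over Control). Its share of the alpha sum was 12.2, 21.3 and 54.5% in running VPA libraries, 37.7 to 41.9% in sedentary VPA and 18.0 to 23.2% in Control libraries. As a share the running libraries thus spanned both other groups, with running VPA rep3 above every sedentary VPA library. In that library Gabra3 itself was low, at 2.79 FPKM, and the high share came with a small alpha sum. The sum was 5.13 FPKM there, with Gabra2 at 0.0413 FPKM, against 22.8 and 29.1 FPKM in running VPA rep1 and rep2. Gabrg1 had 5.67, 4.12 and 8.7 FPKM in running VPA libraries, 5.51, 8.69 and 11.9 FPKM in sedentary VPA libraries and 3.33, 1.98 and 3.5 FPKM in Control libraries, and both VPA groups were above every Control (log2 fold change 1.27, SE 0.44, adjusted p = 0.634 for sedentary VPA over Control; log2 fold change 0.84, SE 0.44, adjusted p = 0.637 for running VPA over Control). Gabrb1 had 15.3, 20.1 and 18.5 FPKM in running VPA libraries, 0, 3.72 and 9.05 FPKM in sedentary VPA libraries and 6.01, 9.66 and 5.51 FPKM in Control libraries, highest with running, and was listed at 0 in sedentary VPA rep1 (log2 fold change 2.38, SE 0.70, adjusted p = 0.26 for running over sedentary VPA; log2 fold change 1.26, SE 0.70, adjusted p = 0.646 for running VPA over Control). Gabrb2 had 3.24, 3.83 and 2.99 FPKM in running VPA libraries, 5.34, 3.66 and 9.72 FPKM in sedentary VPA libraries and 4.39, 9.62 and 4.65 FPKM in Control libraries; running was below Control without overlap (log2 fold change -0.66, SE 0.46, adjusted p = 0.706).

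Markers of oligodendrocyte precursors had the same order as Grid1, Gria4 and Gabra3. Their sum was 907 to 1232 FPKM in running VPA, 1882 to 2891 FPKM in sedentary VPA and 1109 to 1702 FPKM in Control libraries. Of the 7 genes, all were above 0 in sedentary VPA over Control (3 without overlap, median 0.89) and all were lower without overlap in running over sedentary VPA (median -1.22), and none was listed at 0 in all libraries of a group. Astrocyte markers summed to 626 to 816 FPKM in running VPA, 399.9 to 536 FPKM in sedentary VPA and 456 to 800.2 FPKM in Control libraries, with the lowest value in sedentary VPA, as for Grm3. Newborn neuron markers summed to 1132 to 1599 FPKM in running VPA, 1005 to 1269 FPKM in sedentary VPA and 1623 to 1767 FPKM in Control libraries, and 7 of 9 were lower in sedentary VPA than in Control without overlap. GABAergic neuron markers summed to 55.4 to 109 FPKM in sedentary VPA and 17.8 to 54.7 FPKM in Control libraries. In running VPA their sum was 56.5 to 66.5 FPKM. Of 7 tested, 6 were above 0 in sedentary VPA over Control (1 without overlap, median 1.04). In running over sedentary VPA 2 were (median -0.67). None of 6 endothelium, 7 pericyte and 6 fibroblast markers was above 0 in sedentary VPA over Control. The part of any of these cells in the receptor values was not tested.

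**Figure D4:**
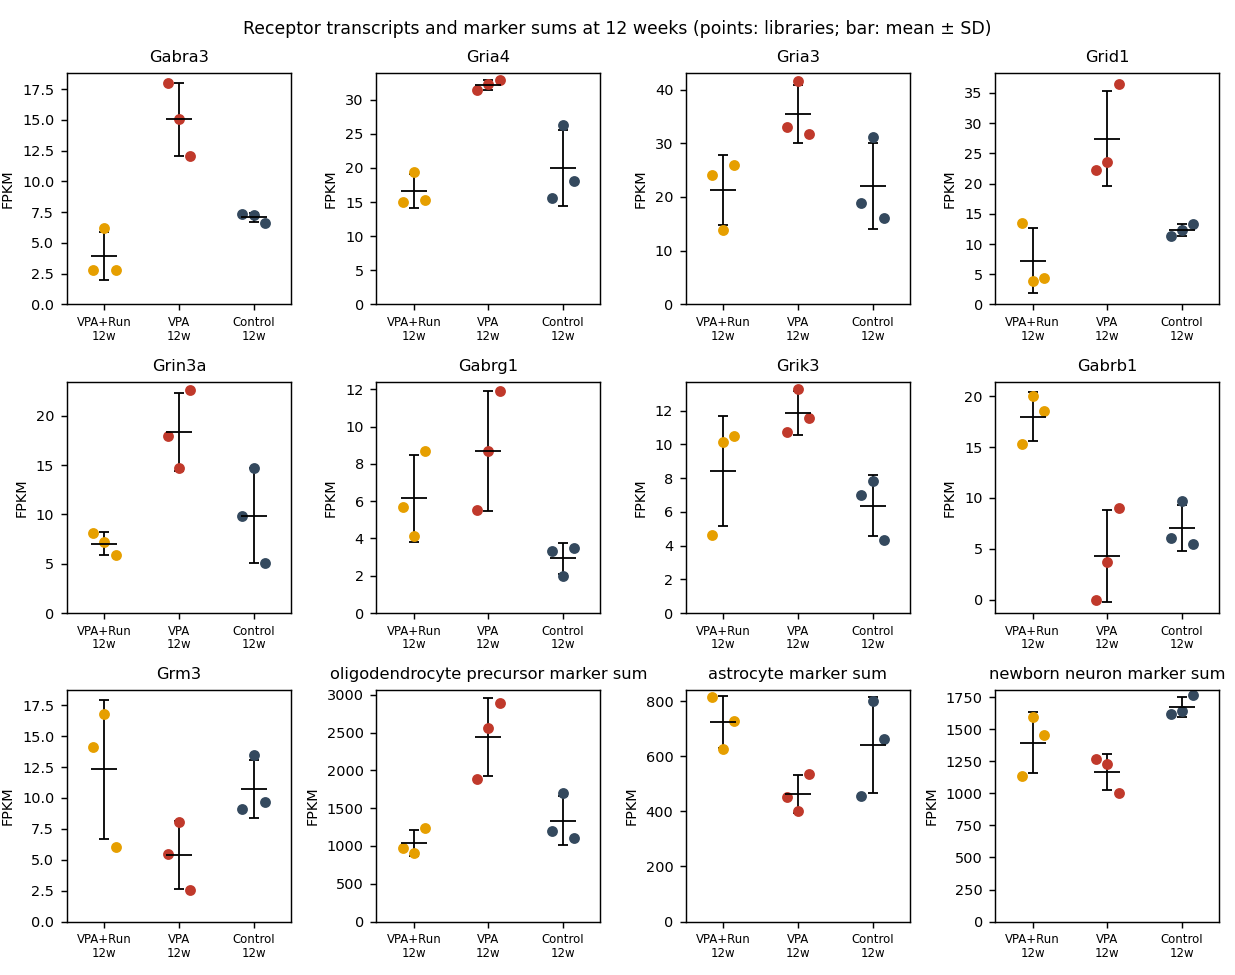
FPKM of 9 members and the summed FPKM of 3 marker lists in each library at 12 weeks, with running VPA, sedentary VPA and Control from left to right; points are libraries and bars are means. Gabra3, Gria4 and Grid1 were highest in all 3 sedentary VPA libraries, as was the sum of the oligodendrocyte precursor markers, and Gabrb1 was highest in the running libraries, at 15.3 to 20.1 FPKM.

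The effect of VPA was then compared between ages. For the difference of the VPA effect at P5 from that at E15, 0 of 37 members passed in limma (0.0955% of all genes did) and 0 had an unadjusted p under 0.05 (1.93% of all genes). This fit held all 21 libraries, so the larger spread at 12 weeks entered these p-values. Differences between the younger ages may thus have been missed. With array quality weights 10 of 37 members passed, against 17.0% of all genes, among them Grin1, Gria1 and Gabra2 upward and Grin2b downward. For the difference at 12 weeks from P5, 0 of 37 passed (0.389% of all genes) and 7 had an unadjusted p under 0.05 (10.5% of all genes). Side by side, the log2 fold change of Grik3 for VPA over Control was 0.66 (95% interval 0.42 to 0.89) at E15, 0.15 (95% interval -0.18 to 0.48) at P5 and 0.83 (95% interval -0.04 to 1.7) at 12 weeks. Gabra3 and Grid1 were the 2 members of 27 tested at all ages whose VPA libraries were above all Control libraries at E15, P5 and 12 weeks, which held for 28 of 11839 genes (0.237%); these 2 were picked after their values were seen. For Gabra3 the log2 fold changes were 0.30, 0.21 and 0.97 at E15, P5 and 12 weeks, and for Grid1 they were 0.25, 0.30 and 1.07. None of these 6 values passed.

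**Figure D5:**
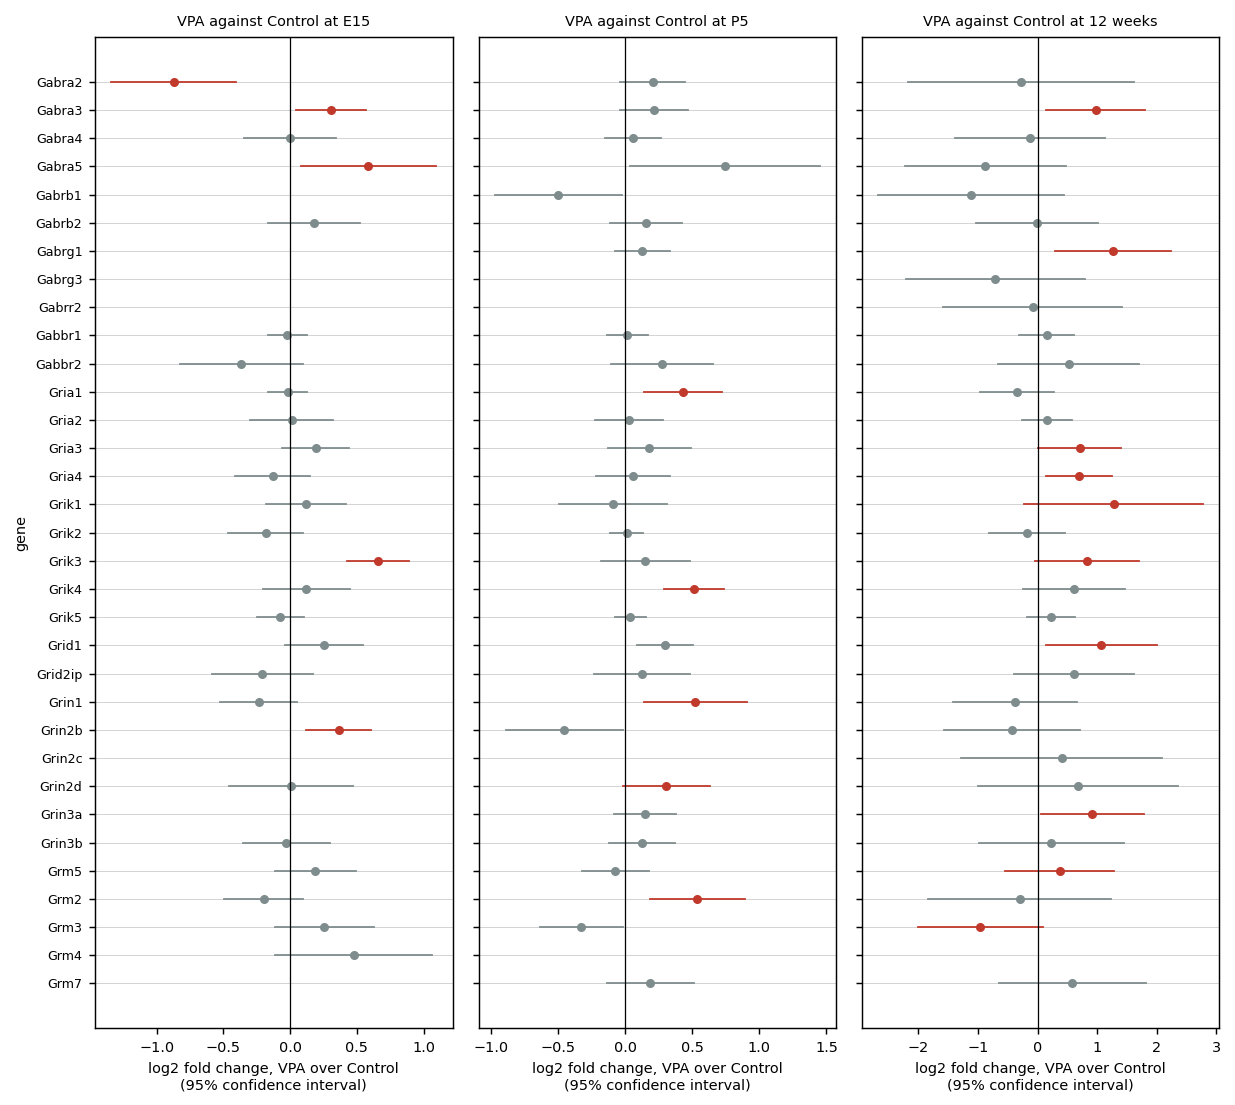
Log2 fold change of VPA over Control with its 95% interval for 33 members, where tested, at E15, P5 and 12 weeks (panels), from limma on log2(FPKM + 1); members named by the rule are in red. At P5, 24 of 29 plotted values lay above 0, and intervals were typically widest at 12 weeks.

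A list of 64 genes that make, move or anchor these transmitters and receptors was counted beside the members. With VPA or running, 1 of them passed: Gsg1l, an auxiliary subunit of AMPA receptors, at P5. It had 18.8, 25.6 and 24.0 FPKM in VPA libraries, against 13.6, 12.7 and 14.5 FPKM in Control libraries, without overlap (log2 fold change 0.69, SE 0.11, adjusted p = 0.0382; 1 of 57 tested at P5, against 2.24% of all genes). At P5 15 of the 57 had an unadjusted p under 0.05, against 24.0% of all genes. At E15 and in the 3 comparisons at 12 weeks 0 of 59 passed in limma. An unadjusted p under 0.05 was found for 9 of the 59 at E15 (10.5% of all genes), 6 in sedentary VPA over Control (6.39%), 10 in running over sedentary VPA (11.3%) and 6 in running VPA over Control (7.76%). Between ages in Control libraries, 11 of 62 rose at P5 over E15 (14.4% of all genes did) and 18 fell (6.33%). At 12 weeks over P5, 7 rose (7.26% of all genes) and 7 fell (5.35%). Chosen after its values were seen, Slc6a11, a GABA transporter gene of astrocytes, had 62.7, 55.5 and 46.3 FPKM at P5, against 2.27, 2.3 and 1.95 FPKM at E15. It was higher at P5 in every library. Slc32a1, the vesicular GABA transporter of GABAergic neurons, also picked by its values, had 0.806, 1.05 and 2.27 FPKM at P5 and 13.4, 8.75 and 8.5 FPKM at E15 (log2 fold change -2.26, SE 0.37, adjusted p = 0.000167).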

How the data were processed

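Green fluorescent cells were sorted by flow cytometry, and polyadenylated RNA was sequenced on an Illumina HiSeq instrument, per the labels' protocols. Per the submitters' processing notes, the authors used TopHat, Bowtie2, Cufflinks and Cuffdiff with mm10; tool versions: not given in the sources used here. Deposited values are FPKM per gene symbol, named so in the headers of the 12-week tables and inferred for E15 and P5 from the same genes and similar column sums. Strand was not stated, so overlapping genes and close paralogues may share reads.

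Values were analysed as log2(FPKM + 1), on which fold changes of low genes are understated, with limma 3.58.1 (R 4.3.3; lmFit, eBayes with an intensity trend) after tests on simulated data; tables were made with Python 3.11.15 and pandas 2.3.3. A fit tested the genes that reached 1 FPKM in 3 or more of its libraries. P-values were adjusted by Benjamini-Hochberg over all of them, and an adjusted p under 0.05 passed. Fits held the 6 libraries of E15 or P5, the 9 of 12 weeks, or all 21 for comparisons between ages. In the fit of all 21, the larger spread at 12 weeks enters the tests of the younger ages. Fold changes were printed for members that passed, or whose groups did not overlap with a log2 fold change of 0.3 or more in size and a group mean of 1 FPKM or more on the higher side; between ages, for the 12 largest that passed. The members, the associated list and the marker lists were chosen with earlier results of these data known. The alternatives are those named in the closing section; the removal of single running libraries for VPA against Control and of each library from counts of groups that do not overlap were added after seeing the data.

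Replicate numbers come from the labels. At E15 libraries with the same number deviated weakly together from their group means (r = 0.126, 0.106 and 0.161 across genes). Sex went with the number there. In Control and VPA, rep2 had Xist at 103 and 163 FPKM and Y-linked sums of 0.0325 and 0.144 FPKM, and rep1 and rep3 the reverse. Pairing of samples and shared sex cannot be told apart. The main E15 fit held no block, and a replicate block changed no E15 call. No pair of libraries was identical. Promoter windows are RefSeq's on GRCm38.p6, the assembly also known as mm10, matched by symbol. Some genes enter the counts and sums but are not reported singly here.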

Additional observations from a re-analysis of the deposited data

How the results depend on the processing

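No fold change of a member named by the rule changed direction under the alternatives run. Which members passed did change at P5. Grik4, higher in VPA, passed in the main fit, and without Control rep3 Gabrb1, Grin2b and Grm3 passed instead, all lower in VPA. The Controls left in that fit had Y-linked sums of 0.0943 and 0.0573 FPKM, against 92.9 to 104 FPKM in VPA libraries. Sex and treatment cannot be told apart there. Array quality weights raised the number of members that passed to 2 at E15 (2.81% of all genes passed), 4 at P5 (9.1%), 27 for Control P5 over E15 (69.8%) and 10 for the difference of the VPA effect between P5 and E15 (17.0%). At P5 the number was 0 with no filter, without the intensity trend, with the replicate block, with the Y-linked covariate and in the fit of all 21 libraries. That fit gave 3 for sedentary VPA over Control at 12 weeks (3.64% of all genes) and 9 for running over sedentary VPA (2 higher, 7 lower; 11.6%). A fit of only the groups compared gave 24 for Control P5 over E15 (60.9%). Leaving out 1 library gave 0 to 1 members at E15, 0 to 3 at P5, 0 to 1 for running over sedentary VPA and 4 to 10 for Control 12 weeks over P5. Groups that did not overlap then numbered 10 to 15 at E15, 9 to 15 at P5, 12 to 19 for running over sedentary VPA and 4 to 12 for running VPA over Control, counts that grow by construction. The share over all genes can move with each removal too and is not given for these ranges. They are thus no result about the members in particular. Apart from E15, the replicate numbers did not pair the samples (r = -0.046 to 0.0797 across genes). With the replicate block 12 members passed for Control P5 over E15 and 8 for 12 weeks over P5, again without the share over all genes. Grik4 at P5 was lost with the block (adjusted p = 0.0734), and 0 members passed at E15, in the 12-week comparisons and in the differences between ages. Grm5 for Control P5 over E15 was lost with quantile normalization (log2 fold change 0.66, adjusted p = 0.123). The causes were not tested. Larger spread and more zeros at 12 weeks limit what could be detected there; read depth is unknown.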

Other observations

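The share of the immature NMDA subunit gene Grin2b in the Grin2a to Grin2d sum was 46.3 to 54.0% in VPA and 34.8 to 46.3% in Control libraries at E15, and 39.8 to 49.1% in VPA and 51.6 to 63.3% in Control libraries at P5. The order of the groups was thus opposite at the 2 ages, with the lowest VPA and the highest Control share at E15 equal to 3 digits. At P5 the lowest Control share, 51.6%, was that of Control rep3, the Control with Y-linked transcripts. The other Controls had 63.1 and 63.3%, so sex and treatment cannot be fully told apart in this order. Grik5 made up 63.5 to 64.4% of the kainate sum in VPA and 69.6 to 71.7% in Control libraries at E15. At P5 the GABA-A alpha sum was 49.5 to 55.3 FPKM in VPA and 41.9 to 47.5 FPKM in Control libraries. At 12 weeks Gabra5, a subunit of tonic inhibition in the hippocampus, had 0.998, 0 and 0 FPKM in running VPA libraries, 1.84, 0.509 and 0.0122 FPKM in sedentary VPA libraries and 2.48, 3.36 and 0.763 FPKM in Control libraries, with zeros in 2 running libraries. These sums, shares and genes were picked after their values were seen and were not tested.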
